A study of Mus musculus with 2 samples.

Results

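Slc17a6 and Slc17a7, the genes of the vesicular glutamate transporters VGLUT2 and VGLUT1, were followed through 1 control and 1 Dnmt1 knockout (KO) section of the embryonic mouse brain. They are 2 of the 500 genes on the probe panel and were taken by name, with no threshold on a measured value. Each coronal section was 10 µm thick and came from a whole head flash-frozen at E16.5. The control carried Sst-Cre and the tdTomato reporter, and the KO carried both of these together with the floxed allele Dnmt1 loxP2. In the KO the Cre driver removes Dnmt1, a DNA methyltransferase gene, in cells that express Sst, which in the cortex are inhibitory interneurons. The RNA was read by MERFISH, in which barcoded probes identify single RNA molecules in place over repeated rounds of imaging, and molecules were counted per segmented cell. Dnmt1 itself was not on the panel, so the deletion could not be checked in these counts.

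The series was a pilot with 1 section per group. No difference between KO and control therefore has a replicate, and the run cannot be told apart from the genotype. The runs differed in depth: the median cell held 20 panel transcripts in the control section but 101 in that of the KO, out of 108533 and 110004 segmented cells. Only 50.9% of control cells against 92.0% of KO cells reached the minimum of 20 transcripts used below. Levels are given as transcripts per 1000000 panel transcripts (CPM) with exact Poisson 95% intervals, and shares with exact binomial 95% intervals. Both cover counting error only. Barcodes left blank on purpose, a measure of false decoding, made up 0.496% (control) and 0.486% (KO) of the decoded counts in cells. Slc17a6 was read 3275 times in control cells and 20737 times in KO cells, 3.95 and 6.40 times as often as the most frequent blank barcode. For Slc17a7 the counts were 4370 and 14903, which is 5.27 and 4.60 times that barcode.

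Vesicular glutamate transporters load glutamate into synaptic vesicles, and their expression is the usual mark of a glutamatergic neuron. In the mature brain VGLUT1 prevails in the cortex and hippocampus, and VGLUT2 in the thalamus, hypothalamus and brainstem. During development many cortical neurons express VGLUT2 before VGLUT1 takes over. Another transporter gene, Slc17a8 (VGLUT3), marks smaller groups of neurons, many of which release another transmitter as well.

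Both genes lie on mouse chromosome 7, Slc17a7 at chr7:44813305-44825644 and Slc17a6 at chr7:51271434-51320867 (GRCm39, plus strand), 6.45 Mb apart and with 12 exons each in the transcripts that the panel names. Over 1683 aligned coding bases, 71.7% are identical, so how alike the transcripts are bears on how well probes can tell them apart. The stretch shown lies in exon 2 of both genes and was chosen because it holds the longest run of identical bases, 21, printed in capitals. The 60-base windows run from chr7:51275191-51275250 for Slc17a6 and from chr7:44818301-44818360 for Slc17a7.
Slc17a6: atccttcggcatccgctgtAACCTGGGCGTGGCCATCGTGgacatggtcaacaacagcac
Slc17a7: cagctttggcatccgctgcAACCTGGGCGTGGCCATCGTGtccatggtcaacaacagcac
The 2 transcripts share no longer run anywhere along their 4457 bases (Slc17a6) and 3042 bases (Slc17a7), and thus 0 identical runs of 30 bases, the length of a MERFISH target. Sequences are those of the reference annotation. The probe sequences were not used here.

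The transporters differed in where their transcripts lay. Slc17a7 was almost confined to the pallial region, the territory of the developing cortex, which was outlined from other genes. This region held 90.0% of Slc17a7 transcripts in the control (interval 89.0 to 90.9) and 87.7% in the KO section (87.1 to 88.2), from only 22.9% and 23.2% of the cells. Slc17a6 was spread more widely, with 37.0% of its transcripts in the pallial region of the control (35.1 to 38.9) and 35.9% in the KO section (35.3 to 36.6). The subpallial region, which holds the ganglionic eminences, the striatum and the ventral forebrain, had 37.1% and 32.8% of the Slc17a6 transcripts. It also held 51.6% and 41.6% of the Eomes and 12.8% and 10.9% of the Tbr1 transcripts, although both are genes of the pallial outline. How many of its cells are pallial was not tested. A band of bins along the ventricle joined the pallium when Meis2, a gene of the subpallial outline list that these bins express, was left out of that list. This periventricular band held 12.3% of Slc17a6 transcripts in the control, from 1463 cells, and 24.1% in the KO section, from 6983 cells. The outline without Meis2 is called the whole wall and was added after the sections had been seen.

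Levels put the areas of each section in order. Slc17a6 was highest in the periventricular band, at 6754 CPM in the control (6034 to 7536) and 6818 CPM in the KO section (6630 to 7010). It reached 1846 CPM in the control pallial region (1731 to 1966) and 2394 CPM in that of the KO (2339 to 2449). Subpallial levels of Slc17a6 were 1004 CPM (941 to 1069) and 1059 CPM (1034 to 1085). Tissue outside both regions stood lowest, at 450 and 474 CPM, so the order of areas was the same in both sections and no neighbouring intervals overlapped. Slc17a7 ran the other way inside the wall. Its level was 6566 CPM in the control pallial region (6348 to 6790) against 3694 CPM in the band (3167 to 4283), and 4205 CPM (4133 to 4278) against 1049 CPM (976 to 1126) in the KO section. In the subpallial region it was 121 CPM in the control (99.6 to 145) and 101 CPM in the KO section (93.4 to 109), next to 114 CPM (91.7 to 140) and 134 CPM (121 to 147) in the other tissue. All of these last levels were below the most frequent blank barcode of the same area (342 and 278 CPM subpallial, 402 and 369 CPM in the other tissue) and are not distinct from false decoding.

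Set against the most frequent blank barcode of the subpallial region, the pallial level of Slc17a7 was at least 19.2-fold (control) and 15.1-fold (KO) higher. For Slc17a6, which was above all blank barcodes in every area, pallial over subpallial levels were 1.84-fold and 2.26-fold for Slc17a6. Slc17a8 was read 300 and 1614 times, less often than the most frequent blank barcode, and 65.7% and 74.0% of these reads lay in the subpallial region, at 205 and 187 CPM, where 6 and 4 of the 50 blank barcodes were higher. In the pallial region it was at 69.0 and 56.4 CPM, below the median blank barcode (74.7 and 95.9 CPM), so its level there was not distinct from false decoding. The share of pallial molecules inside segmented cells was above that of all genes for Slc17a6 and slightly below it for Slc17a7. In the control 88.0% of pallial Slc17a6 molecules and 80.5% of Slc17a7 molecules lay inside cells, against 81.9% of all panel molecules, and the KO values were 84.8%, 80.3% and 81.3%.

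**Figure D1:**
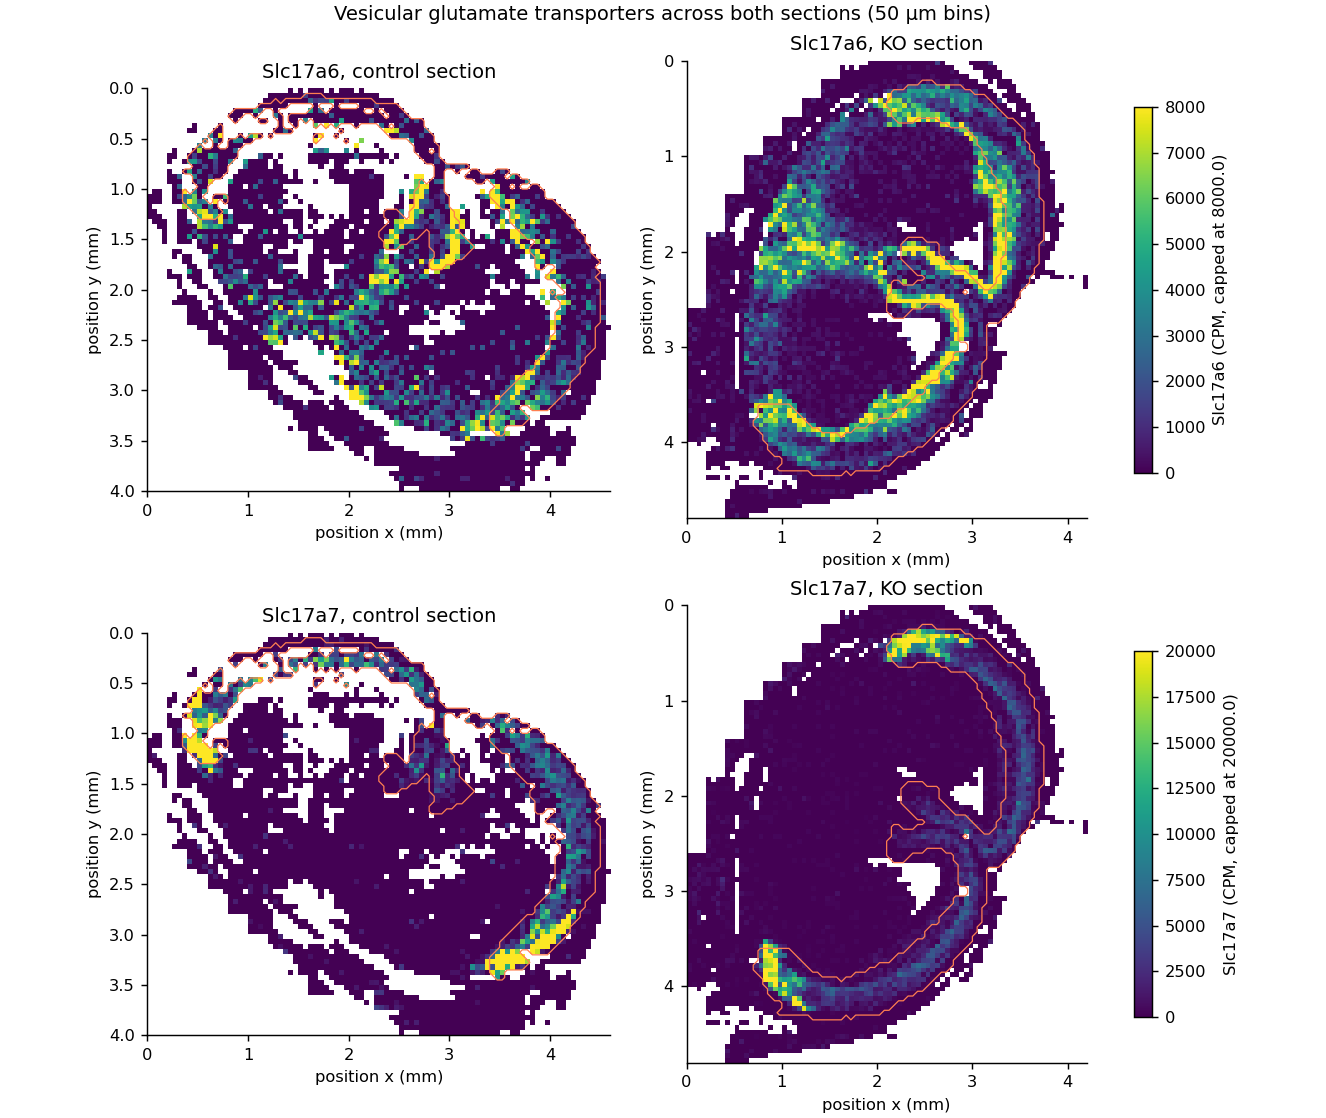
Levels of Slc17a6 (top) and Slc17a7 (bottom) in CPM over the control (left) and KO (right) section, by position in mm, in bins of 50 µm with at least 200 transcripts. Colour is capped at 8000 CPM for Slc17a6 and 20000 CPM for Slc17a7, white bins were not measured, and the orange line is the outline of the pallial region. Slc17a7 fills the pallial outline and peaks at its lateral ends, while Slc17a6 follows the ventricular edge and the ventral midline and is low across the striatum.

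Across the thickness of the wall the genes were ordered in opposite directions. Relative depth was measured from 0 at the outer, pial edge to 1 at the inner edge. The inner edge was every border inside the brain outline of the hemisphere, that with the subpallial region included. Cells next to the subpallial region therefore count as deep. In the pallial region without the band, the border with the band counts as inner edge too. Medians are over transcripts and pool all parts of the wall from medial to lateral. In the whole wall the median Slc17a6 transcript lay at a depth of 0.667 (control) and 0.675 (KO), and the median Slc17a7 transcript at 0.382 and 0.361. The median cell lay at 0.512 and 0.5, between both genes. For orientation, Eomes, the regulator of intermediate progenitors, lay at 0.855 and 0.846. Cux2, an upper-layer and progenitor gene, lay at 0.538 and 0.605, and the deep-layer regulator Fezf2 at 0.485 and 0.387. Reln, the signal of the marginal zone, was at 0.319 and 0.134. This differed between hemispheres, at 0.0909 and 0.521 in the control and 0.105 and 0.388 in the KO section. The measured depth of Reln was thus greater than that of Slc17a7 in hemisphere 2 of both. The line drawn between hemispheres is not the midline, and bins across it counted as outer edge. Depth in hemisphere 2 is therefore less certain, and the pooled medians and depth bins include its cells. The part of this line in the Reln values was not tested. Within the pallial region, without the band, the medians were 0.691 and 0.715 for Slc17a6 and 0.452 and 0.485 for Slc17a7, so Slc17a7 lay 0.24 and 0.23 nearer to the surface. The sign of this difference was the same in all 4 hemispheres.

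In 10 depth bins of the whole wall, Slc17a6 was lowest in the outermost bin, at 898 CPM in the control and 1173 CPM in the KO section. Its highest level was in the innermost bin of the control, 5365 CPM (4642 to 6168), and in the ninth bin of the KO section, 6629 CPM (6374 to 6892). The span from lowest to highest bin was 5.97-fold and 5.65-fold. Slc17a6 also had a small outer maximum in the second bin, 1739 CPM (1393 to 2145) and 2197 CPM (2052 to 2348). Levels at the fifth bin of the control (1031 CPM, 799 to 1309) and the fourth of the KO section (1798 CPM, 1673 to 1928) were below it.

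In the whole wall Slc17a7 peaked in that same second bin in both sections, at 14252 CPM (13225 to 15338) in the control and 6847 CPM (6591 to 7111) in the KO section. From there it declined inwards to 926 CPM (641 to 1294) and 285 CPM (224 to 357) in the innermost bin. The span was 15.4-fold in the control, and no fold is given for the KO section, whose innermost level was below the most frequent blank barcode of the pallial region (310 CPM). The third bin of the control (7966 CPM) was lower than the fourth (9059 CPM), and their intervals, 7218 to 8771 and 8302 to 9868, overlapped. The outermost bin, which takes in the marginal zone and the pial covering, held less Slc17a7 than the second, 5123 and 2573 CPM. The place of the peak depended on the outline. In the pallial region without the band, the control again peaked in the second bin, at 12067 CPM (11096 to 13101), but in the KO section that bin (4561 CPM, 4304 to 4830) was below the third to the sixth, which lay between 5121 and 5931 CPM.

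**Figure D2:**
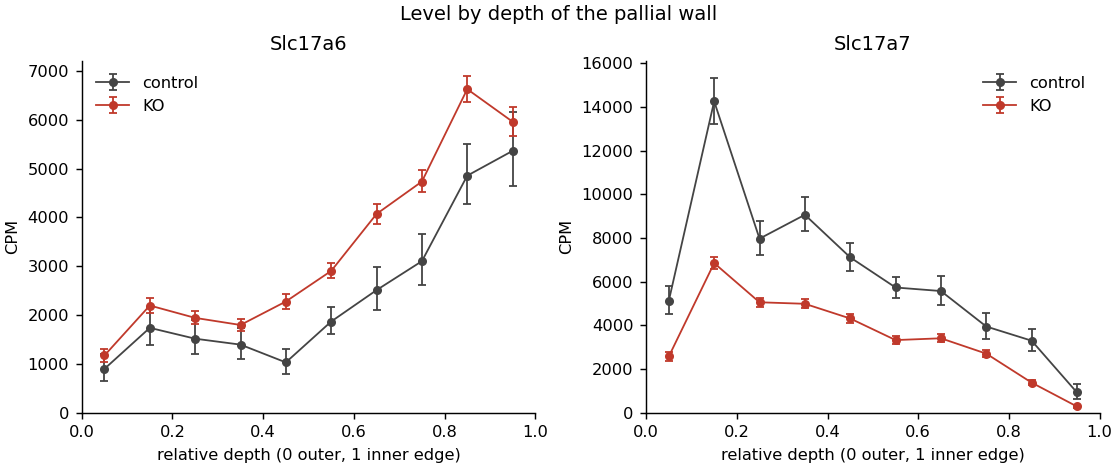
Level of each transporter in CPM by relative depth in the whole pallial wall, from 0 at the outer to 1 at the inner edge, in 10 bins. Points are sums over the cells of a bin in the control (grey) and KO (red) section and bars are Poisson 95% intervals. With all sectors pooled, Slc17a6 rises towards the inner edge in both sections, and Slc17a7 peaks near the surface and falls off inwards. The pool includes the lateral sector, where Slc17a7 is most frequent and lies nearest to the surface.

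Along the arc of the cortex, from the medial wall to the lateral end, the pallial region of each hemisphere was divided into 5 sectors. Slc17a7 was concentrated in the lateral sector, which borders the piriform and insular cortex. There it reached 16878 CPM in the control (16187 to 17592) and 11510 CPM in the KO section (11258 to 11767). The other 4 sectors lay between 2413 and 3521 CPM in the control and between 1740 and 2316 CPM in the KO section. The lateral sector alone held 65.4% and 60.7% of pallial Slc17a7 transcripts. Its level was 4.99 and 5.27 times that of the dorsal sector, the third, and the 4 hemispheres gave folds between 4.39 and 6.80.

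Slc17a6 was also higher laterally than dorsally, with 2514 CPM in the control (2252 to 2799) and 3358 CPM in the KO section (3222 to 3497). This was 2.25 and 2.24 times the dorsal sector, and the 4 hemispheres gave folds between 2.01 and 3.74. In the whole wall, whose sectors were drawn anew, this fold was 1.85 and 1.25, and between 1.06 and 3.79 by hemisphere. Over the medial sector of the pallial region, the lateral level of Slc17a6 was 0.934-fold and 0.898-fold. The dorsal levels in the pallial region were 1117 CPM (911 to 1356) and 1498 CPM (1402 to 1598). In the medial sector Slc17a6 reached 3310 CPM in hemisphere 2 of the control and 5042 CPM in hemisphere 2 of the KO section, but 928 and 1363 CPM in hemisphere 1. The line between hemispheres was drawn by script and is not the midline, so the medial sector of hemisphere 2 takes in medial wall of both sides and cannot be set against that of hemisphere 1. Depth and arc were partly linked. In the lateral sector of the whole wall both genes lay nearer to the surface, Slc17a7 at a median depth of 0.296 and 0.309 and Slc17a6 at 0.466 and 0.490. In the other sectors the median depth of Slc17a7 was between 0.461 and 0.693 in the control and between 0.341 and 0.537 in the KO section. The pooled depth profile of Slc17a7 thus includes the weight of the lateral sector, whose part in the outer peak was not tested. In each of the 5 sectors of both sections the median Slc17a7 transcript was more superficial than that of Slc17a6.

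**Figure D3:**
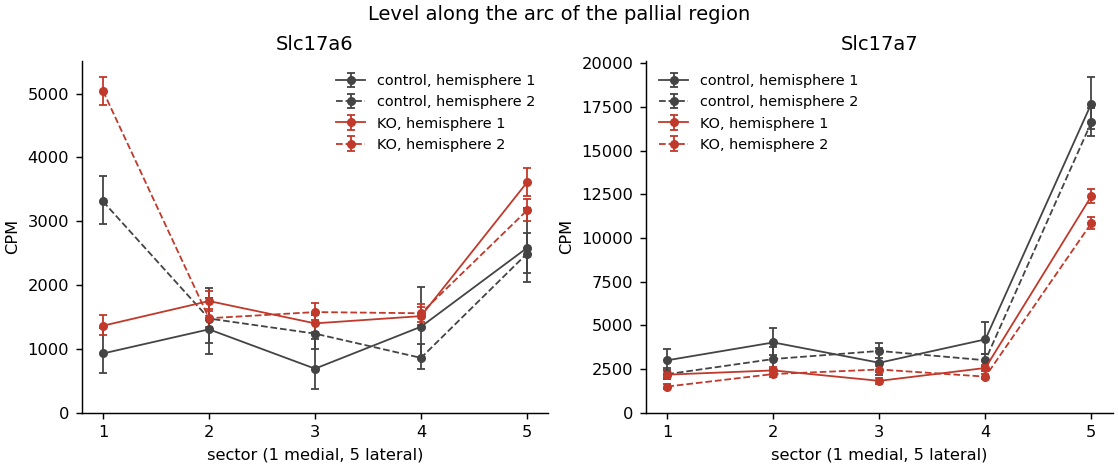
Level of each transporter in CPM in 5 sectors along the arc of the pallial region, from medial (1) to lateral (5), for both hemispheres of the control (grey) and KO (red) section, with Poisson 95% intervals. Slc17a7 is highest in the lateral sector of all 4 hemispheres, between 10849 and 17694 CPM. Slc17a6 is raised there too, and in the medial sector of hemisphere 2, which includes medial wall of both sides.

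Pallial cells with transcripts of both transporters were few once all cells were cut to the same depth. To make cells of different depth comparable, 25 transcripts were drawn at random from each cell. This left 9896 (control) and 23141 (KO) pallial cells, out of 24867 and 24415 before any minimum. The control cells are thus a deeper selection of their section, which limits how far shares can be compared between sections. Slc17a6 was then seen in 4.36% of cells of the control (3.96 to 4.78) against 5.38% in the KO (5.09 to 5.68). Slc17a7 was seen in 11.7% (11.1 to 12.4) and 6.93% (6.61 to 7.27). For comparison, endothelial-like cells, which should lack both genes, showed Slc17a6 in 1.30% and 1.95% of thinned cells and Slc17a7 in 1.09% and 0.858%, with median depths of 37 and 120 transcripts before thinning. In microglia-like cells the shares were 1.43% and 2.42% for Slc17a6 and 0.451% and 0.617% for Slc17a7, at median depths of 39 and 122. The pallial shares of both genes were above these. In the subpallial region Slc17a7 was seen in 0.262% and 0.179% of cells, below that background. The subpallial share of Slc17a6 was 2.33% in the control (2.13 to 2.55), above it, and 2.12% in the KO section (1.99 to 2.25), within the range of both background classes.

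Both transcripts were found together in 61 thinned control cells where 50.6 would be met if the genes were placed independently, and in 74 KO cells where 86.3 would be. The odds ratio was 1.25 (control) and 0.841 (KO). These values lay on opposite sides of 1, and their intervals, 0.958 to 1.61 and 0.661 to 1.06, took it in. The intervals carry only the Poisson error of the count of cells with both and are not full intervals of the odds ratio. Pooled over depth bins the odds ratio was 1.55 and 1.01. Of the cells with Slc17a6, 14.2% (11.0 to 17.8) and 5.94% (4.70 to 7.41) also held Slc17a7. Of the cells with Slc17a7, 5.25% (4.04 to 6.69) and 4.61% (3.64 to 5.76) also held Slc17a6. Among the odds ratios of Slc17a6 with all panel genes that could be compared, Slc17a7 ranked 62 of 230 (control) and 171 of 325 (KO).

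Without thinning, cells with both were 182 of 12632 (1.44%) for the control and 1403 of 23505 (5.97%) for the KO, and the odds ratio was 1.51 and 1.49. Of the cells with Slc17a6, 21.6% and 30.2% then also held Slc17a7. Of the cells with Slc17a7, 9.10% and 24.8% also held Slc17a6. The share of overlap thus depends on the depth of reading. The cells with both were larger and deeper than the rest. Their median volume was 1594 and 1299 µm³ against 1230 and 835 µm³ over all pallial cells, and their median total was 60 and 210 transcripts against 33 and 108. The part of volume and depth in the unthinned overlap was not tested further. Most positive cells rested on a single molecule: 87.4% of the 843 control cells and 67.6% of the 4645 KO cells with Slc17a6 had exactly 1. The highest count in a cell was 4 and 22 for Slc17a6, and 21 and 73 for Slc17a7.

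Odds ratios with other genes were taken in the same thinned cells. Slc17a6 went with Eomes, at an odds ratio of 5.43 (control) and 5.10 (KO), from 20 and 79 cells with both. Within depth bins the values were 3.21 and 3.76. Slc17a6 was seen less often than independent placement would give with Fezf2 (0.529 and 0.476), although in 84 of 431 control and 221 of 1245 KO cells. The same held with Slc32a1, the vesicular GABA transporter (0.253 and 0.391). With Gad1, a GABA synthesis gene, Slc17a6 had an odds ratio of 0.356 (control) and 0.945 (KO), and with Lhx6, a regulator of interneurons, 0.483 and 0.667. Slc17a7 went with Nr4a2 (1.60 and 1.69) and with Tbr1 (1.63 and 1.67), both regulators of deep-layer and subplate neurons. It was below 1 with Cux2 (0.717 and 0.739), Eomes (0.710 and 0.530), Reln (0.635 and 0.792) and Fezf2 (0.656 and 0.814), although Fezf2 is a deep-layer gene. Within depth bins the value for Eomes was 1.04 in the control, from 9 cells with both, and 0.628 in the KO section, and the others stayed below 1. With Gad1 and Slc32a1 the values for Slc17a7 were 1.28 and 1.04, and 1.10 and 0.949. With Lhx6 they were 0.765 and 0.699. Slc17a6 and Tbr1 gave 0.831 and 1.05, Slc17a6 and Nr4a2 0.668 and 0.813, and Slc17a6 and Cux2 1.28 and 1.30.

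Pallial cells that held a Slc17a6 transcript were set against those without, and the panel genes were ranked by the ratio of their levels. Eomes led, at 2251 against 378 CPM in the control (log2 ratio 2.57) and 3167 against 579 CPM in the KO section (2.45). The cells with Slc17a6 held 23 and 94 Eomes transcripts. The control level without Slc17a6 was near the most frequent pallial blank barcode before thinning (366 CPM), so the size of the control fold is uncertain. Sstr2, a somatostatin receptor gene of migrating cortical neurons, was at 13602 against 3576 CPM and at 10006 against 3084 CPM, log2 ratios of 1.93 and 1.70. The transcription factor genes Onecut2 (1.99 and 1.44), Lhx2 (1.91 and 1.23) and Prox1 (1.02 and 1.71) followed, with the chromatin remodeller gene Chd7 (1.37 and 1.09). Baiap3 (1.26 and 1.16), which acts in vesicle release, Nxph4 (1.02 and 1.13), a neurexin ligand, Aldoc (1.03 in the control, and 1853 against 927 CPM in the KO section), a glycolytic enzyme of radial glia, and Calb2 (0.92 and 1.47), the calretinin gene, completed the 10 highest of 229 genes. The 5 lowest were Dcn (-2.63 and -2.80), Osr1, Aplnr, Pdgfrb and Flt1, of which the control cells with Slc17a6 held between 1 and 4 transcripts each.

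Among the ratios for Slc17a7, Baiap3 led, at 2366 against 385 CPM in the control (log2 ratio 2.62) and 969 against 171 CPM in the KO section (2.50). C1ql3, which codes for a secreted synaptic protein, followed at 2.22 and 2.20, with Sphkap, an anchor protein of protein kinase A, at 1.95 and 2.23. Receptor genes among the 10 highest included Gabra5 (1.47 and 1.39) of the GABA-A receptor, Grik1 (1.59 and 1.42) of the kainate receptor, Chrm1 (5423 against 1913 CPM in the control, with a log2 ratio of 1.43 in the KO section) of the muscarinic and Adra1b (1.95 and 1.49) of the adrenergic receptors. Rasgrf2 (1.84 and 1.79), an activator of Ras, and Brinp3 (1.51 and 1.72) were also among the 10 highest. The 5 lowest were Dcn (-4.16 and -3.70), Creb3l1 (-3.00 and -2.54), Ndnf (-2.44 and -2.62), Bmp7 (-2.58 and -2.32) and Igf2 (-2.24 and -2.42). Cells with Slc17a7 held only 4 and 14 transcripts of Dcn, 3 and 6 of Creb3l1 and 4 and 4 of Ndnf. Baiap3 was the sole gene that the lists of both transporters shared among their 10 highest. In cells with Slc17a6 it rested on 14 transcripts in each section. Its KO levels in cells without Slc17a6 (211 CPM) or Slc17a7 (171 CPM) were below the most frequent pallial blank barcode before thinning (310 CPM). C1ql3 in cells without Slc17a7, at 321 and 290 CPM, was below that barcode too (366 and 310 CPM). The size of these folds is therefore uncertain. All ratios of both lists describe which cells were read as positive, and cells of 1 section share its slide and run.

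Over bins of 100 µm, 956 (control) and 1342 (KO), the pattern most like that of Slc17a6 was Tbr1, at Pearson r of 0.65 and 0.78 on the log2 scale with a pseudocount of 100 CPM. Next came Unc5d (0.51 and 0.74), a netrin receptor gene, Tagln3 (0.50 and 0.66), Cnr1 (0.50 and 0.65), the cannabinoid receptor gene, and Nos1 (0.49 and 0.68). Prdm8 (0.75 and 0.78), a transcriptional regulator of projection neurons, was most like Slc17a7. It was followed by Tbr1 (0.65 and 0.70), Ntng2 (0.65 and 0.68), a netrin-G gene, Wnt7b (0.58 and 0.59) and Ntsr1 (0.57 and 0.57), a marker of deep cortical neurons. Slc17a6 and Slc17a7 correlated at 0.31 and 0.43 with each other. The bins share a section, a depth of reading and the contrast between pallium and the rest, so the values describe shared territory.

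Outside the pallial outline, 463 control and 1045 KO cells of the thinned subpallial region held Slc17a6. They were set against the subpallial cells without it, by the same ranking applied there after the sections had been seen. As given above, this region also held Eomes and Tbr1 transcripts, so its cells may include pallial ones. In the KO section the share of subpallial cells with Slc17a6 (2.12%) was within the range of the background classes given above. Prdm8 (2.73 and 3.21), Tbr1 (2.14 and 2.68), Ebf3 (2.68 and 2.11) and Nxph4 (2.32 and 2.07) had the highest ratios. In cells without Slc17a6, Prdm8 was at 246 and 238 CPM and Ebf3 at 281 and 148 CPM. Those levels were below the most frequent subpallial blank barcode before thinning (342 and 278 CPM), so the size of both folds is uncertain. Irs4 (1.77 and 1.74), an adaptor of insulin signalling in the hypothalamus, and Nts (1.83 and 1.49), the neurotensin gene, were also among the 10 highest. Lowest were the striatal regulators Ebf1 (-2.05 and -1.97) and Foxp1 (-1.93 and -1.92). Eomes, which led in the pallium, stood at 0.74 and 0.85.

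Cells of both sections were clustered without Slc17a6 and Slc17a7 among the genes, so that their level per cluster was not what made the clusters. Of 33 clusters, 19 matched no cell type by the markers used. Slc17a6 was highest in the cluster led by Sstr2, Unc5d, Pou3f2 and Eomes, upper-layer or immature projection neuron-like by its markers, at 7161 CPM in the control (6467 to 7910) and 8163 CPM in the KO section (7898 to 8434). This cluster held 14.9% and 17.4% of all Slc17a6 transcripts, and its wall cells lay at a median depth of 0.755 and 0.753. The ventral forebrain neuron-like cluster led by Calcr, Irs4 and Baiap3 was next in the control and followed the cluster led by C1ql3 in the KO section, at 3178 CPM (2862 to 3520) and 3941 CPM (3800 to 4087), with 14.2% and 14.2% of the transcripts. Slc17a6 was seen in 7.25% and 8.17% of its thinned cells, and Slc17a7 in 0.750% and 0.203%. A radial glia-like cluster led by Hopx, Aldoc and Eomes had 1875 CPM (1564 to 2229) and 3160 CPM (3012 to 3314) of Slc17a6.

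Slc17a7 was concentrated in 1 cluster, led by C1ql3, Nr4a2 and Il1rapl2 and matched to no cell type. It had 18575 CPM in the control (17742 to 19436) and 13227 CPM in the KO section (12936 to 13523), and held 49.1% and 52.8% of all Slc17a7 transcripts. Of its cells in the whole wall, 89.6% and 91.2% lay in the lateral sector. Slc17a6 was present in these cells too, at 2871 CPM (2549 to 3221) and 4200 CPM (4037 to 4368). They accounted for 36 of the thinned control cells and 51 of the thinned KO cells with both transcripts, with odds ratios inside the cluster of 1.29 and 0.819. The deep-layer neuron-like cluster led by Mc4r, Ntsr1, Fezf2 and Tbr1 was second for Slc17a7, at 5906 CPM (5471 to 6366) and 3597 CPM (3471 to 3727), and it held 17.9% and 20.5% of the transcripts. Its Slc17a6 level was 597 and 774 CPM, and both transcripts met in 1 of 2409 and 5 of 6359 thinned cells, at odds ratios of 0.203 and 0.447.

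Slc17a7 was also read in the MGE interneuron-like cluster led by Sst and Npy, which is GABAergic by its markers, at 2953 CPM in the control (2535 to 3420) and 938 CPM in the KO section (852 to 1030). Of the Slc17a7 transcripts in this cluster, 91.0% and 89.2% lay in the lateral sector of the wall, which also held 86.9% and 85.4% of its wall cells. The part of neighbouring cells in these counts was not tested.

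**Figure D4:**
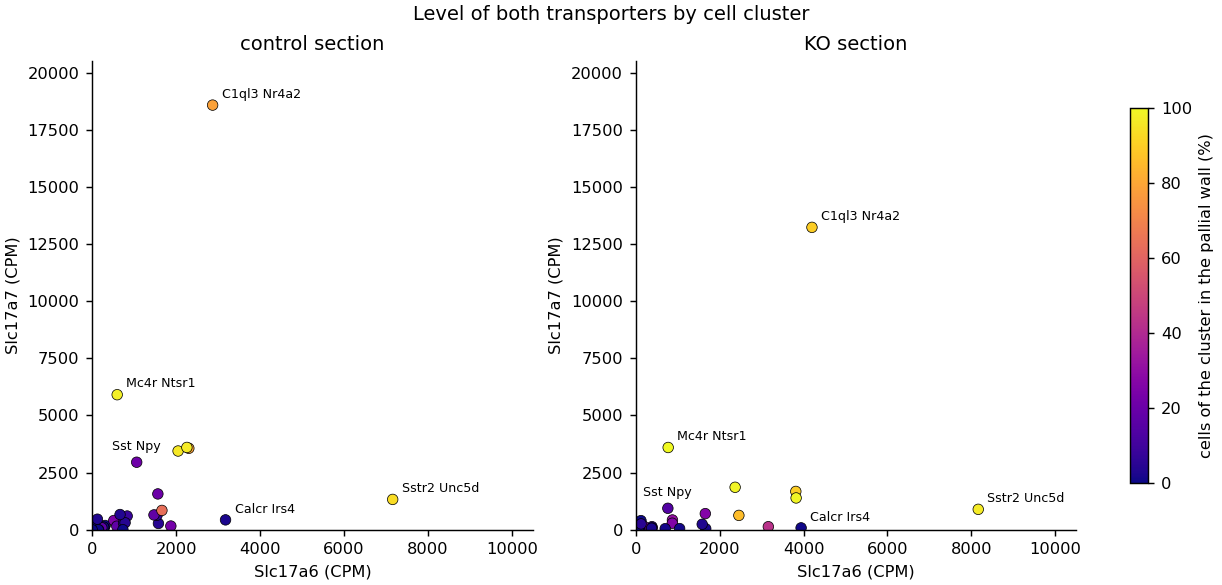
Level of Slc17a6 (x axis) and Slc17a7 (y axis), both in CPM, in the 33 clusters of the control (left) and KO (right) section. Each point is a cluster, coloured by the percentage of its cells that lie in the pallial wall, and 5 clusters are labelled by their leading genes. The cluster led by Sstr2 and Unc5d lies far along the Slc17a6 axis, and the one led by C1ql3 and Nr4a2 is the highest on the Slc17a7 axis in both sections.

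Between the sections, the pallial level of Slc17a6 was higher and that of Slc17a7 lower in the KO. The log2 ratio of KO over control was 0.37 (interval 0.25 to 0.50) for Slc17a6 and -0.64 (-0.72 to -0.57) for Slc17a7. Of the 309 genes with at least 100 transcripts in both pallial regions, 23.9% were past 1.5-fold in either direction and 7.44% were past it on the lower side in the KO. Slc17a7 was past that fold, on the lower side, and Slc17a6 was not, but these calls lay near the limit of 0.58 on the log2 scale. Slc17a7 fell short of it without a minimum per cell (-0.53), over all decoded molecules (-0.54) and in imaging plane 0 (-0.55), and Slc17a6 passed it at a minimum of 50 transcripts (0.67). The median gene stood at 0.10 and the central 90% of genes between -0.73 and 0.89. Slc17a6 lay at percentile 73.9 and Slc17a7 at percentile 6.96, both inside that range. With 1 section per genotype these values compare 2 sections and not 2 genotypes.

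The hemispheres, split by a line that is not the midline, are unequal parts of each section. They held 3679 and 8953 cells in the control and 9146 and 14359 in the KO section. Hemisphere 2 takes in medial wall of both sides, so their gap includes a difference in territory and is not a replicate spread. Slc17a7 was at 6860 and 6467 CPM in the hemispheres of the control and at 4469 and 4004 CPM in those of the KO section, without overlap. Slc17a6 was at 1428 and 1988 CPM in the control and 1971 and 2717 CPM in the KO section, so the higher control and the lower KO hemisphere were level. The hemispheres of the control differed in depth as well, with median totals of 15 and 25 transcripts per cell.

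The lower Slc17a7 value held in all 5 sectors, with log2 ratios from -0.63 to -0.47 and all intervals below 0. By depth it was most marked in the outer bins, at -1.57 (-1.98 to -1.15) in the first and -1.40 (-1.61 to -1.20) in the second bin of the pallial region. The other bins lay between -0.76 and -0.39, apart from the innermost one at 0.05 (-0.54 to 0.67). This order depended on the outline. In the whole wall the innermost bin was at 926 CPM in the control and 285 CPM in the KO section, the latter below the most frequent blank barcode. That is a larger fold than in the second bin of the whole wall, at 14252 and 6847 CPM. Slc17a6 was above 0 in all 5 sectors (0.21 to 0.70) and all 10 depth bins (0.06 to 0.77), but the interval took in 0 in 1 sector and in 7 depth bins. In the periventricular band Slc17a6 was equal in both sections, at 0.01 (-0.18 to 0.21), and Slc17a7 was at -1.82. Of the 84 genes counted there, 46.4% were past 1.5-fold. In the subpallial region the ratio of Slc17a6 was 0.08, where 27.0% of 404 genes were past 1.5-fold, and none is given for Slc17a7, whose levels there were below the most frequent blank barcode.

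Within clusters, Slc17a7 was at -0.72 (-0.88 to -0.55) in the deep-layer neuron-like cluster and at -0.49 (-0.59 to -0.39) in the cluster led by C1ql3 and Nr4a2. The largest difference among the 5 clusters with enough transcripts was -1.66 (-2.01 to -1.30), in the MGE interneuron-like cluster described above. For Slc17a6 the ratio was 0.19 (-0.0022 to 0.38) in the cluster led by Sstr2 and Unc5d, 0.31 (0.11 to 0.51) in the ventral forebrain neuron-like cluster and 0.75 (0.43 to 1.08) in the radial glia-like one. In the other clusters with enough transcripts it ran from 0.03 (-0.23 to 0.31) to 0.73 (0.40 to 1.07), the latter in the cluster led by Calb2 and Prokr2. The cluster led by C1ql3 and Nr4a2 was at 0.55 (0.33 to 0.78).

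**Figure D5:**
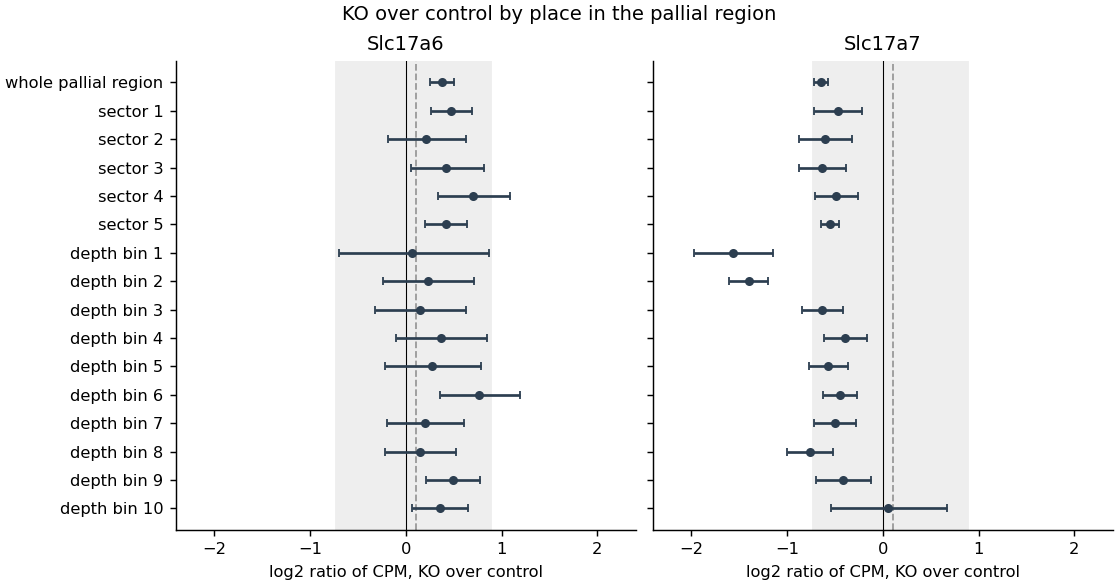
Log2 ratio of CPM, KO over control, for Slc17a6 (left) and Slc17a7 (right) in the whole pallial region, in its 5 sectors and in 10 depth bins from the outer (1) to the inner (10) edge. Points are ratios of 1 section to 1 section, bars pair the opposite ends of both Poisson 95% intervals, the grey band covers the central 90% of 309 genes in the pallial region and the dashed line is their median. In this outline, without the periventricular band, Slc17a7 is below 0 everywhere but in the innermost bin, most of all in the outer 2 bins. Slc17a6 is at or above 0 throughout. In the whole wall, not shown here, Slc17a7 was lower in the KO section in the innermost bin as well.

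Of 11 panel genes on a list of glutamate receptors, transporters and enzymes, 9 had enough pallial transcripts. Of these 9 genes, 1 was past 1.5-fold, on the upper side, beside the 23.9% of all genes, with a median of -0.06 beside the 0.10 of all genes. The interval lay below 0 for 3 of them, Grik1 at -0.50 (-0.64 to -0.36), Grin3a at -0.40 (-0.49 to -0.31) and Grm3 at -0.35 (-0.40 to -0.29), as it did for 25.2% of the 309 genes. In the subpallial region 3 of 10 were past that fold on the lower side, Grm3 (-0.62), Grin3a (-0.65) and Grik1 (-0.67), where 13.1% of 404 genes were. The 3 genes of the GABA list, Gad1, Gad2 and Slc32a1, stood at -0.11, 0.37 and 0.14 in the pallial region. Among the layer genes there, Tbr1 was at 0.02, Fezf2 at -0.11, Cux2 at 0.02, Nr4a2 at -0.44, Eomes at 0.78, Reln at 0.05 and Lhx6 at -0.04.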

How the data were processed

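MERFISH was run by the authors on a MERSCOPE instrument with the Pan Neuro panel, and its software decoded the molecules and segmented the cells. The deposited values are raw counts per segmented cell and gene. The deposited cell metadata gave positions in µm and volumes in µm³, and the list of molecules gave each position and imaging plane (7 planes). The segmentation model and the transcript build are not given in the sources used here. The median depth per cell was 20 (control) and 101 (KO) transcripts.

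The transporters and all gene lists were chosen with earlier results of these data known. Blank barcodes were left out of totals and cells needed at least 20 transcripts. A grid of 25 µm, Gaussian-smoothed at 50 µm, gave the pallial region as the bins where 4 pallial genes outnumbered 10 subpallial ones (over 50% of their sum), neither transporter among them. This grid, its smoothing, a minimum of 4% of panel transcripts and a smallest part of 0.3 mm² were chosen once the sections had been seen. CPM refers to panel transcripts. Ratios had no pseudocount and needed 100 transcripts per section. Ratio intervals join the far ends of both Poisson intervals and are therefore conservative. No test was run, since each group is 1 section. For shares of cells, each cell was thinned once at random to 25 transcripts and shallower cells were left out. Hemispheres were split by a 2-means line. Named companion genes are the 10 highest by bin correlation, and the 10 highest and 5 lowest ratios between thinned cells with and without a transporter, ranked by the weaker section. Results for some genes are not reported here. Clusters came from Seurat 5.3.0 in R 4.3.3 (log normalization, 30 components, reciprocal PCA, Louvain resolution 0.8) after the study's approach. A cluster was named from at least 3 markers among its top 10 genes. No doublet caller was run on segmented cells. Python 3.11.15, numpy 2.4.6, scipy 1.17.1, pandas 2.3.3, matplotlib 3.10.9 and Biopython 1.88 were used, and the calculations were tested on simulated data. Alternatives covered the minimum, outline, scaling, molecules, planes, hemispheres, thinning and resolution.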

Additional observations from a re-analysis of the deposited data

How the results depend on the processing

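No paired analysis was possible because each group is 1 section and the labels give no replicate numbers. For the log2 ratio of KO over control in the pallial region, a minimum of 50 transcripts per cell gave 0.67 for Slc17a6 and -0.97 for Slc17a7, and no minimum gave -0.53 for Slc17a7. The whole wall, added after seeing the sections, gave 0.55 and -0.82. All decoded molecules gave -0.54 and those of imaging plane 0 gave -0.55 for Slc17a7. Per cell volume, both ratios were positive, 2.53 and 1.51, so that of Slc17a7 was reversed. On that scale the median gene was at 2.26, and relative to it the values were 0.27 and -0.75. Between single hemispheres, KO hemisphere 1 over control hemisphere 2 gave -0.012 and -0.53, which turns the sign of Slc17a6, and KO hemisphere 2 over control hemisphere 1 gave 0.93 and -0.78.

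The pallial share of transcripts depends on the outline. At 60% it was 29.6% and 26.8% for Slc17a6 and 83.7% and 77.7% for Slc17a7 (control, KO), and in the whole wall 48.1% and 59.8%, and 94.1% and 92.4%. The depth difference, Slc17a7 minus Slc17a6, stayed negative: -0.15 and -0.15 at 60%, -0.29 and -0.31 in the whole wall, -0.12 in the control at a minimum of 50, -0.16 in control hemisphere 1, and -0.12 and -0.30 in KO hemispheres 1 and 2. The odds ratio of both genes was 2.87 and 2.83 for at least 2 transcripts of each without thinning, 1.49 in the KO section without thinning, 1.81 in control hemisphere 1 and 0.65 in the KO whole wall. Resolution 1.2 gave 44 clusters in place of 33. The odds ratio of the KO section thus went from below to above 1 without thinning and for at least 2 transcripts, as it did by a small margin pooled over depth (1.01) and in hemisphere 1 (1.02). The 1.5-fold call of Slc17a7 was lost at -0.53, -0.54 and -0.55, and Slc17a6 was past that fold at 0.67 and 0.93. The causes were not tested. Depth limits the control most: with a median of 20 transcripts per cell, absence of a transcript in a cell says little.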

Other observations

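Other clusters carried Slc17a6 at intermediate levels. The cluster led by Calb2, Prokr2 and Cemip, matched to no cell type, had 2303 CPM in the control (1908 to 2756) and 3815 CPM in the KO section (3628 to 4009), together with 3562 and 1675 CPM of Slc17a7. Cells of the cluster with Npas1, Reln and Ndnf in the lead had 1663 CPM (1389 to 1974) and 2458 CPM (2298 to 2627) of Slc17a6.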
